A study of Mus musculus with 28 samples.

Results

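The insulin-like growth factor (IGF) system was followed through 9 genes, which were taken by name from the 3 expression tables: the growth factors Igf1 and Igf2, the receptor Igf1r and the binding proteins Igfbp2 to Igfbp7. All 9 were found in each table, out of 55463 genes in all. The RNA sequencing data came from mouse small-intestinal organoids, which are epithelial cultures grown from crypts in a gel matrix, and from mesenchymal cells of the duodenum. The organoids were wild type (C57BL/6), and their crypts were first seeded in ENR medium (EGF, Noggin and R-spondin), of which Noggin is an inhibitor of BMP ligands. The title of the series concerns how members of the Tgfb superfamily govern the last steps of enterocyte maturation at the villus tip. The medium during ligand exposure, the sex and the age of the mice are not given in the sources used here. Recombinant BMP2, BMP3, BMP4, BMP5, BMP7 or Tgfb was then given at 500 ng/ml for 24 h, and control organoids were left untreated. A first table covered 4 controls, 4 samples with BMP2 and 3 each with BMP3, BMP4, BMP5 or BMP7, and a second held 3 controls of its own and 3 Tgfb samples. Another table held 1 sample of mesenchymal cells labelled fresh, from a PdgfraH2BeGFP mouse, in which the Pdgfra locus marks nuclei with green fluorescent protein. It also held 1 sample of such cells after immortalisation with the E6 gene of a papillomavirus, puromycin selection and sorting by fluorescence, with a title that reads HIGH. The labels do not say whether replicates came from separate mice or cultures, so p-values measure only the spread between these samples, which may be technical.

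IGF1 and IGF2 are secreted growth factors that activate the receptor tyrosine kinase encoded by Igf1r, which signals to PI3K, AKT and mTOR. In tissue and blood most IGF is held by binding proteins, which block or release it depending on proteases such as PAPP-A and on binding to cells and matrix. In the intestine, IGF signalling is known to stimulate the growth of crypts, and mesenchymal cells are known as a local source of the ligands.

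The promoters of the 5 members that passed the test with the most extreme folds after BMP2 or BMP4 are shown, since 3 of these genes (Igfbp3, Igfbp5, Igfbp7) were highest with BMP2 and the other two were lowest with BMP4. Each sequence is the 250 bases before the RefSeq start in mouse build GRCm38.p6, written 5′ to 3′ on the gene's strand. Every one of the 9 members had at least 1 promoter entry in RefSeq. The Igfbp3 window is chr11:7213924-7214173, that of Igfbp5 is chr1:72874866-72875115 and that of Igfbp7 is chr5:77408046-77408295, all on the minus strand. The Igfbp4 window is chr11:99040994-99041243 and that of Igf1r is chr7:67952007-67952256, both on the plus strand. None of the 5 was found in the GENCODE transcripts of its gene. The bases just after the start were found in such a transcript for all but Igf1r, so its start rests on RefSeq alone. Capitals mark TATAAA or CAGAC on either strand.
Igfbp3: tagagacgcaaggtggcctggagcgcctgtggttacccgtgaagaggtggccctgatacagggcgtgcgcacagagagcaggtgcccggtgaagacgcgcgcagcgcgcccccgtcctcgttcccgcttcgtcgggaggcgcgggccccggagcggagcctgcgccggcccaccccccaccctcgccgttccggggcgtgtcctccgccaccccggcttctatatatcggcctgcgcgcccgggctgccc
Igfbp5: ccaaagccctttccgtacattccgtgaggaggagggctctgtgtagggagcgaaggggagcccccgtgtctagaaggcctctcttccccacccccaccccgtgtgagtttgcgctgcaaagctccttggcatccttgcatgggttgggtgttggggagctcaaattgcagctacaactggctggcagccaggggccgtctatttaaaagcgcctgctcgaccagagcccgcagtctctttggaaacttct
Igfbp7: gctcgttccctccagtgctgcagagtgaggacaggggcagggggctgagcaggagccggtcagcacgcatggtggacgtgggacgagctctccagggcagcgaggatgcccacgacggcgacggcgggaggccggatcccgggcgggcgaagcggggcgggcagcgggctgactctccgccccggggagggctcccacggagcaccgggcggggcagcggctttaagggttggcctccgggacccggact
Igfbp4: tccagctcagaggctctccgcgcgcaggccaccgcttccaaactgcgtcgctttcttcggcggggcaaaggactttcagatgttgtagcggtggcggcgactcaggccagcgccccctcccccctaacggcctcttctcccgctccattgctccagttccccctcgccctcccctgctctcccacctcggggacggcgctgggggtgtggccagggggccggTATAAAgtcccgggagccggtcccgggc
Igf1r: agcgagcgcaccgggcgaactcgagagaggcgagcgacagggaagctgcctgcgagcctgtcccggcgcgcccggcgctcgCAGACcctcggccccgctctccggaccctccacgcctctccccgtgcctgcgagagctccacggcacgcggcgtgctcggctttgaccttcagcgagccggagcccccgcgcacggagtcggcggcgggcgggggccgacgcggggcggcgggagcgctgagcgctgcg
GGCGCC and CAGAC, letters known from sites that Smad proteins bind, were searched on both strands. The Igf1r window held CAGAC at -169 from the start, and 42.2% of the 32851 mouse promoters of the same length held it. None of the 5 windows held GGCGCC, which 9.59% of all promoters held. TATAAA, a motif searched after the sequences were seen, lay at -28 in the Igfbp4 window and in 12.4% of all promoters. G and C made up 73.2% of the Igfbp3 window, 58.8% for Igfbp5, 74% for Igfbp7, 69.2% for Igfbp4 and 77.6% for Igf1r, with a median of 52.4% over all promoters. In the RefSeq order Igfbp2 and Igfbp5 are neighbours on chromosome 1, Igfbp3 adjoins Igfbp1 on chromosome 11, and no protein-coding gene lies between Igf2 and H19 on chromosome 7.

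Values of the BMP table are normalized counts, that is, reads of a gene divided by 1 factor per sample, and cannot be compared between genes. The samples held 21358620 to 24784834 recovered reads, and 1 read was worth 0.826 to 1.28 normalized counts. Values of the other tables are TPM (transcripts per 1000000), which allow for transcript length, and their depth is unknown. Epithelial markers were high in all organoids: 8 of 8 were detected, with a sum of 119040 to 135110 normalized counts in controls and 725420 to 941040 with BMP2. Crypt stem cell markers, with Olfm4 and Lgr5 among 5, summed to 99818 to 124495 in controls, 1165 to 2048 with BMP2 and 3689 to 6505 with BMP4. Most of the control sum was Olfm4, at 84000 to 110000, and all 5 were called lower by limma with BMP2 and with BMP4. The sum of 4 enterocyte markers was 39610 to 70260 in controls, 17450 to 35390 with BMP2 and 234100 to 327000 with BMP4. The lower sum with BMP2 came from Sis (1280 to 2320, controls 16200 to 37500) and Fabp1 (912 to 2900, controls 10800 to 19600). Apoa1 overlapped with controls (1970 to 9970, controls 3200 to 9360), and Alpi was called higher by limma (11100 to 20200, controls 8910 to 13400). Sums of 3 proliferation markers were 18850 to 28170 in controls, 317.5 to 1095 with BMP2 and 5731 to 8420 with BMP4. In such bulk samples fewer cells of a type and less RNA per cell cannot be told apart, and the part of these shifts in the results below was not tested.

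Organoids held almost no Igf1 (ENSMUSG00000020053) transcript. No more than 1 read was counted in any sample of the BMP table, 6 reads over 6 of the 20 samples. The highest level in the Tgfb table was 0.00754 TPM, and a count of 0 allows up to 3 reads in a sample. No fold is given for Igf1, because all groups lay at or below that limit.

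Igf2 (ENSMUSG00000048583), the second ligand and an imprinted gene, was low and was highest with BMP4. Its normalized counts in control replicates II, III, IV and VI were 8.88, 6.64, 9.76 and 9.91. With BMP4 they were 30.8, 34.2 and 31.1 in replicates II, III and VI, above every other sample of the table. The rise over controls was 1.77 ± 0.55 on the log2 scale (SE), with an adjusted p of 0.00875 by limma. The ratio of summed reads, each group scaled by the factors of its samples, was 3.65. Its 95% counting interval was 2.48 to 5.45, from 82 against 41 reads. With a pseudocount of 0.1 in place of 1 the adjusted p was 0.111. Igf2 passed the filter on low values only through its BMP4 samples, so a difference was built into its being tested.

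The other ligands left Igf2 at values that did not pass the test. BMP3 samples had 15.1, 13.5 and 11.4 normalized counts in replicates II, III and IV, all above the highest control, with a log2 difference of 0.55 (95% interval -0.60 to 1.71). BMP2 samples had 5.68, 6.39, 9.41 and 7.59, BMP5 samples 9.87, 6.48 and 0, and BMP7 samples 11.8, 10 and 5.77. Without BMP5 replicate II, the log2 difference of BMP5 from controls was -1.83 with an adjusted p of 0.0175, against -1.16 and 0.132 with all samples. H19, the untranslated imprinted RNA beside Igf2, had no read in the 4 controls, 10.1 to 13.6 normalized counts with BMP2 and 3.42 to 5.93 with BMP4. H19 was under the filter, has no test, and was named after its values were seen.

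Igf1r (ENSMUSG00000005533), the receptor, moved in opposite directions with BMP2 and BMP4. Controls had 979, 954, 913 and 692 normalized counts in replicates II, III, IV and VI. With BMP2 the values were 1880, 1650, 1640 and 1030, and with BMP4 they were 133, 143 and 98.1 in replicates II, III and VI. Every BMP2 sample lay above every control and every BMP4 sample below every control. The rise with BMP2 was 0.79 ± 0.18 on the log2 scale (limma, adjusted p 0.000676), and with BMP4 Igf1r fell by 2.82 ± 0.20 (adjusted p 1.02e-09). The direct difference between BMP2 and BMP4 was 3.61 ± 0.20, with an adjusted p of 1.71e-11. When samples were rescaled to equal totals, the rise with BMP2 was 0.33 and no longer passed (adjusted p 0.147), while the median of all genes moved from -0.03 to -0.49.

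BMP5 and BMP7 samples lay around or above the controls for Igf1r. Values were 1270, 1270 and 994 with BMP5 and 1300, 1280 and 860 with BMP7 in replicates II, III and VI. All BMP5 samples exceeded the controls, and BMP7 replicate VI fell among them. The log2 differences of 0.42 ± 0.20 for BMP5 and 0.36 ± 0.20 for BMP7 did not pass (adjusted p 0.129 and 0.167). Replicate numbers paired these groups with the controls, and with the number as a block the differences passed, at 0.44 for BMP5 (adjusted p 0.000436) and 0.39 for BMP7 (adjusted p 0.00104). BMP3 samples had 912, 958 and 851, inside the control range, with a difference of 0.05 (95% interval -0.36 to 0.46). In the order of mean levels, BMP2 (1550 ± 364, SD, n = 4) was followed by BMP5 (1178 ± 159, n = 3), BMP7 (1147 ± 248, n = 3), BMP3 (907 ± 53.7, n = 3), controls (885 ± 131, n = 4) and BMP4 (125 ± 23.6, n = 3). Neighbours in that order overlapped in range except controls and BMP4.

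**Figure D1:**
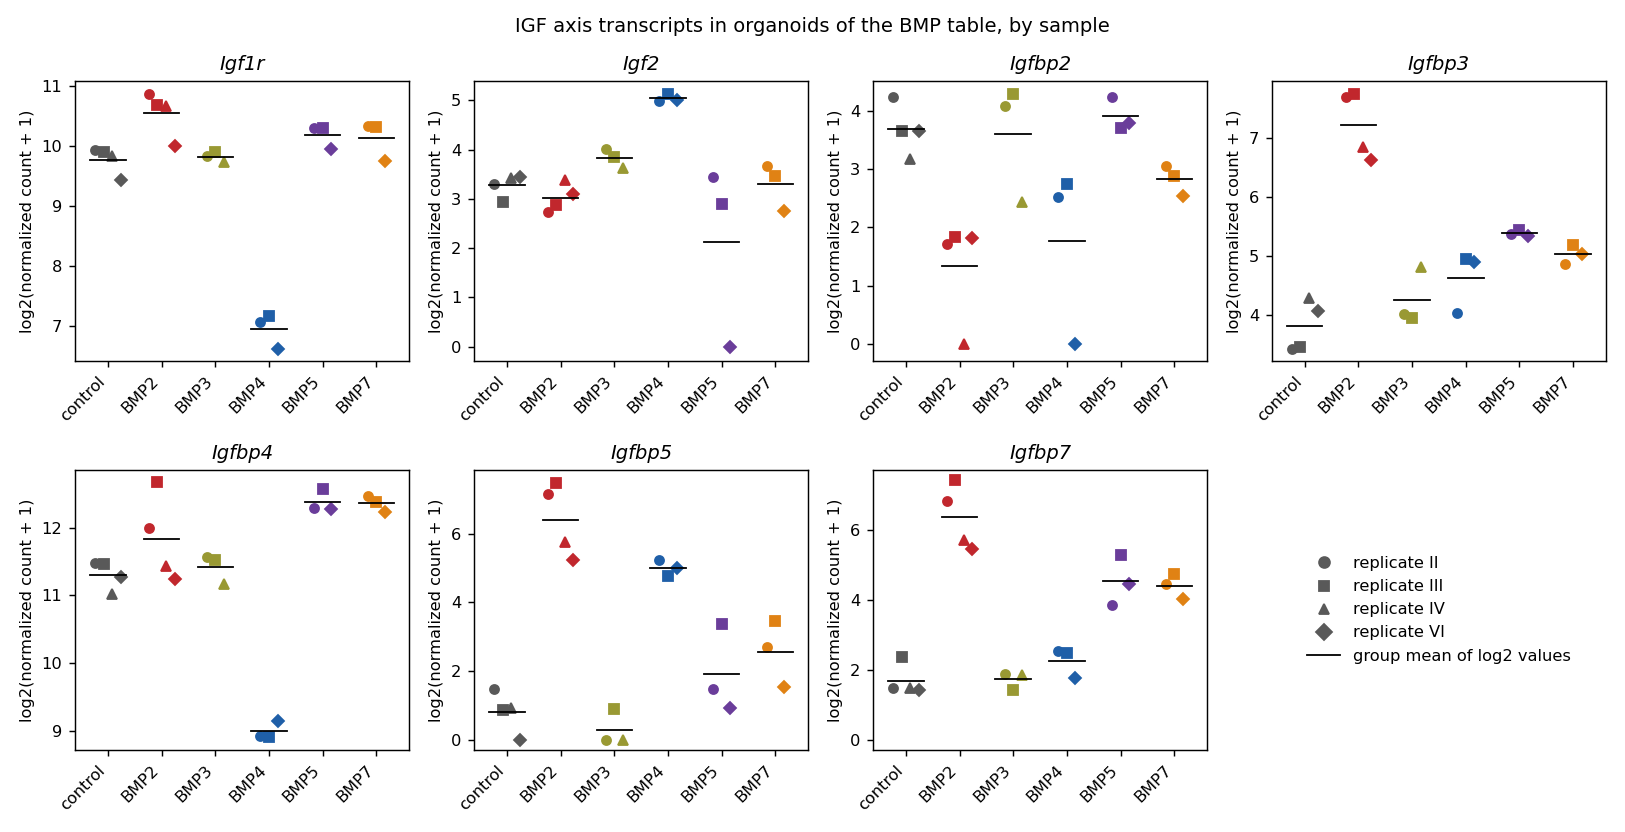
Normalized counts of the 7 members with more than stray reads, as log2(normalized count + 1), by group on the horizontal axis of each panel. Each point is 1 sample, its shape gives the replicate number, and the line is the group mean. Igf1r and Igfbp4 are lowest with BMP4, Igfbp3, Igfbp5 and Igfbp7 are highest with BMP2, and Igf2 is highest with BMP4.

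Igfbp4 (ENSMUSG00000017493), a secreted protein that holds IGFs away from their receptor, fell with BMP4 and rose with BMP5 and BMP7. Control replicates II, III, IV and VI had 2840, 2820, 2070 and 2470 normalized counts. BMP4 replicates II, III and VI had 486, 480 and 568. With BMP5 the values were 5030, 6080 and 4970, and with BMP7 they were 5640, 5330 and 4820. Neither the BMP4 samples nor the BMP5 and BMP7 samples overlapped with the controls. Igfbp4 fell by 2.31 ± 0.23 with BMP4 (log2, limma, adjusted p 8.46e-08), and rose by 1.08 ± 0.23 with BMP5 (adjusted p 0.00194) and 1.05 ± 0.23 with BMP7 (adjusted p 0.00181).

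The response of Igfbp4 to BMP2 was uneven among samples. The 4 BMP2 replicates II, III, IV and VI had 4070, 6500, 2760 and 2420 normalized counts, of which replicates IV and VI lay inside the control range. The rise was 0.53 ± 0.21 with an adjusted p of 0.0333 by limma. It did not pass with samples rescaled to the same total (0.07, adjusted p 0.785) or with quantile normalization (0.08, adjusted p 0.72). Nor did it pass without BMP2 replicate II (0.47, adjusted p 0.079), BMP2 replicate III (0.25, adjusted p 0.167), control replicate IV (0.43, adjusted p 0.101) or control replicate VI (0.52, adjusted p 0.0606). BMP3 samples had 3030, 2940 and 2300, with a difference of 0.11 (95% interval -0.37 to 0.60). By mean level the order was BMP5 (5360 ± 624), BMP7 (5263 ± 414), BMP2 (3938 ± 1851), BMP3 (2757 ± 398), controls (2550 ± 362) and BMP4 (511 ± 49.2), with overlap between neighbours except controls and BMP4.

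Igfbp3 (ENSMUSG00000020427), the main IGF carrier of blood, rose with each BMP except BMP3, whose difference did not pass. Control replicates II, III, IV and VI had 9.77, 9.96, 18.6 and 15.7 normalized counts, and the BMP2 replicates had 205, 214, 114 and 97.5. All BMP2 samples lay far above all other samples of the table, and replicates II and III were higher than IV and VI. The rise with BMP2 was 3.42 ± 0.30 on the log2 scale (limma, adjusted p 6.12e-09). The scaled ratio of summed reads was 11.7 with a 95% counting interval of 9.01 to 15.5. BMP5 samples had 40.4, 42.6 and 39.2 and BMP7 samples 28.1, 35.5 and 31.8, above all controls. These rises were 1.57 ± 0.33 (adjusted p 0.00139) and 1.22 ± 0.33 (adjusted p 0.00767).

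With BMP4, Igfbp3 had 15.4, 29.7 and 28.7 normalized counts, and replicate II fell among the controls. The rise of 0.81 ± 0.33 had an adjusted p of 0.0354 and was lost in 7 of 16 alternatives, among them edgeR on recovered reads (0.76, adjusted p 0.073), the same total (0.44, adjusted p 0.266) and no filter on low values (adjusted p 0.0692). It was also lost without control replicate II (0.69), control replicate III (0.69), BMP4 replicate III (0.65) or BMP4 replicate VI (0.68). BMP3 samples had 15.1, 14.4 and 27.1, with a difference of 0.45 (95% interval -0.24 to 1.13).

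Igfbp5 (ENSMUSG00000026185), a binding protein that also attaches to extracellular matrix, was close to absent from controls and rose with BMP2 and BMP4. Control replicates II, III, IV and VI had 1.78, 0.83, 0.887 and 0 normalized counts, 4 reads in all. BMP2 replicates had 142, 178, 52.9 and 36.7, and BMP4 replicates II, III and VI had 36.7, 26.2 and 31.1. All samples of both groups lay above all controls, and the lowest BMP2 sample equalled the highest BMP4 sample. The rise was 5.59 ± 0.58 with BMP2 (limma, adjusted p 6.48e-08) and 4.19 ± 0.63 with BMP4 (adjusted p 1.19e-05). The scaled ratio of summed reads was 119 for BMP2, with a 95% counting interval of 46.2 to 441 that rests on the 4 control reads. For BMP4 it was 36.5 (13.7 to 137).

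BMP5 and BMP7 gave Igfbp5 values of a few reads. They were 1.79, 9.26 and 0.912 with BMP5 and 5.44, 10 and 1.92 with BMP7 in replicates II, III and VI, and replicate III was the highest of both groups. The log2 difference was 1.11 with BMP5 (adjusted p 0.217) and 1.75 with BMP7 (adjusted p 0.0411). The BMP7 call was lost in 7 of 15 alternatives, with adjusted p up to 0.167, among them a pseudocount of 5 and leaving out control replicate III, IV or VI or BMP7 replicate II or III. Values were 0, 0.845 and 0 with BMP3. Igfbp5 passed the filter only through its high samples, mainly those with BMP2.

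Igfbp7 (ENSMUSG00000036256), a relative of this family that binds IGFs weakly, rose with BMP2, BMP5 and BMP7 and not detectably with BMP4. Control replicates II, III, IV and VI had 1.78, 4.15, 1.77 and 1.65 normalized counts. The BMP2 replicates had 114, 171, 51.8 and 43, the BMP5 replicates II, III and VI 13.5, 38 and 21, and the BMP7 replicates 20.9, 25.5 and 15.4. No sample of these 3 groups overlapped with the controls, and no BMP5 or BMP7 sample reached the lowest BMP2 sample. The rise was 4.68 ± 0.42 with BMP2 (limma, adjusted p 8.24e-09), 2.86 ± 0.46 with BMP5 (adjusted p 0.000135) and 2.73 ± 0.46 with BMP7 (adjusted p 0.000155). BMP4 samples had 4.74, 4.56 and 2.39 and BMP3 samples 2.67, 1.69 and 2.63. The difference with BMP4 was 0.57 (95% interval -0.38 to 1.53, adjusted p 0.282), and with BMP3 it was 0.04 (-0.92 to 1.00). Like Igfbp5, Igfbp7 passed the filter through its high groups.

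Markers of mesenchymal cells, a cell type known to make these binding proteins, had lower sums with BMP2 than in controls. Of 10 markers, 8 were listed in the BMP table, which left out Dcn and Lum. Each of its 29413 genes had a value above 0 in at least 1 sample, so a gene left out may have had no read. The sum of the 8 was 136 to 221 normalized counts in controls and 73.0 to 95.3 with BMP2. For BMP4 the sum was 29.7 to 47.8, for BMP5 139 to 189 and for BMP7 72.6 to 108. In controls most of the sum was Vim, at 119 to 180. With BMP2 Vim was 31.6 to 37.6, a smaller part of the sum, so the lower sum came mainly from Vim. The fibroblast collagen Col3a1 was at 0 in every control and at most 1.18 with BMP2. Pdgfra was 0 to 1.78 in controls and 12.8 to 37.5 with BMP2, and Col1a1 was 0.826 to 19.5 and 10.2 to 20.5. Col1a2 was 0 to 5.32 in controls and 0 to 16.5 with BMP2, while Pdgfrb was 2.66 to 14.2 and 0 to 1.27. Of 4 endothelial markers, 3 were listed (all but Emcn), with a sum of 569 to 774 in controls, 832 to 1022 with BMP2 and 865 to 1031 with BMP4. Nearly all of it was Pecam1, while Cdh5 was at 0 in every control and BMP4 sample and 22.7 to 40.9 with BMP2. Of 3 glial markers, 2 were listed (all but Sox10), with a sum of 18.96 to 22.2 in controls and 32.0 to 44.3 with BMP2. S100b among them was 0.888 to 4.96 in controls and 18.8 to 34.2 with BMP2. The sum of 5 immune markers overlapped between controls (75.1 to 122) and BMP2 (78.8 to 176), as did that of 4 smooth muscle markers (0 to 6.21 and 2.27 to 7.60). Single immune markers moved in opposite directions. Cd68 was 14.2 to 32.9 in controls and 34.1 to 76.1 with BMP2, while Lyz2 was 29.7 to 46.2 and 10.6 to 37.5. The part of mesenchymal, endothelial, glial or other cells in the rise of Igfbp3, Igfbp5 and Igfbp7 was not tested.

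Igfbp2 (ENSMUSG00000039323), which carries an integrin-binding motif, missed the filter with a table mean of 8.35 normalized counts. Control replicates II, III, IV and VI had 17.8, 11.6, 7.98 and 11.6, while BMP2 replicates had 2.27, 2.56, 0 and 2.53 and BMP4 replicates 4.74, 5.7 and 0. The BMP2 and BMP4 samples lay below all controls. Without a filter on low values, limma gave a log2 difference of -2.34 with BMP2 (adjusted p 0.0021) and -1.92 with BMP4 (adjusted p 0.0198). The scaled ratio of summed reads with BMP2 was 0.149, with a 95% counting interval of 0.0524 to 0.344 from 6 against 57 reads. BMP7 samples had 7.26, 6.38 and 4.81, also below the controls, and did not pass (-0.85, adjusted p 0.45). BMP3 samples had 16, 18.6 and 4.38 and BMP5 samples 17.9, 12 and 12.8, which overlapped with the controls.

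Igfbp6 (ENSMUSG00000023046), which prefers IGF2, had 5 reads over 4 of the 20 samples and never more than 2 in a sample, so no fold is given. Igfbp1, the neighbour of Igfbp3 and known from liver, stayed at 0 to 2.74 normalized counts in every group. Igfals, the acid-labile subunit of the circulating IGF complex, had 6.61 to 8.88 in controls and 1.18 to 2.56 with BMP2, under the filter and untested.

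Counted over the members, BMP2 changed 5 of the 6 that passed the filter, all upward, in a comparison that called 75.1% of all genes tested and 36.8% upward, with 38.4% downward. With equal totals per sample, BMP2 called 3 of the 6 and 11421 genes in all. BMP4 changed 5 of 6, with 3 higher and 2 lower, where 65.1% of all genes were called, 33.7% higher and 31.4% lower. BMP7 changed 4 of 6, all upward, against 32.4% of all genes called, 19.2% upward and 13.2% downward, and BMP5 changed 3 of 6, all upward, against 26.3%, 16.5% and 9.87%. BMP3 changed 0 of 6 by limma, where 0% of all genes passed. At an unadjusted p under 0.05, BMP3 had 0 members and 110 of 14746 genes, edgeR and DESeq2 called 0 members, and DESeq2 called 1 gene in all. The median log2 change of the 6 was 2.10 for BMP2 and 0.69 for BMP4. It was 1.09 for BMP5, 1.14 for BMP7 and 0.08 for BMP3, where the medians of all genes lay between -0.05 and 0.04. These comparisons share the 4 controls, and 3 of the 6 members passed the filter only through the group or groups in which they were high. The counts and medians leave out Igfbp2, which the filter dropped and which was lower with BMP2 and BMP4 in the fit without a filter. With the replicate number as a block, BMP5 called 4 of 6 members and 5738 genes in all, and BMP7 called 5 of 6 and 6689, against 3884 and 4773 genes without it.

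**Figure D2:**
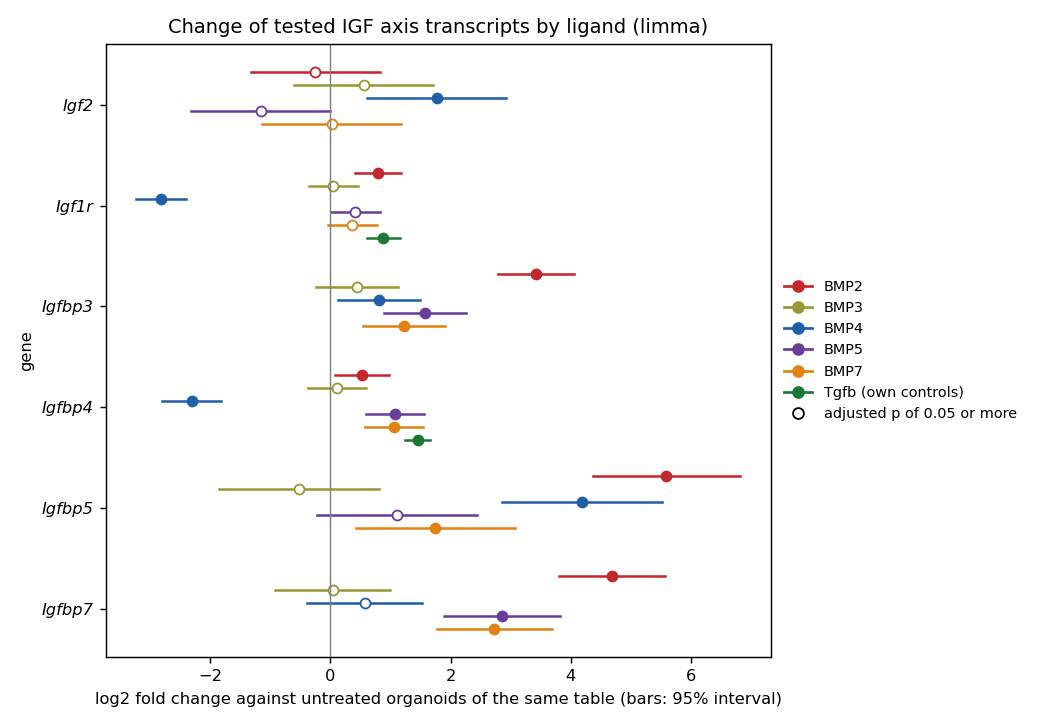
Log2 fold change of the tested members against untreated organoids of the same table, with 95% intervals, coloured by ligand. Filled points passed an adjusted p of 0.05 by limma. BMP4 stands at -2.82 for Igf1r and -2.31 for Igfbp4, on the other side of 0 from the remaining called points of those genes.

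The direct tests between ligands asked where the members responded differently. All 6 tested members differed among the 5 BMP ligands by limma's moderated F-test, as did 84.1% of all genes. For Igf2, Igfbp5 and Igfbp7 a difference was built in by the filter, which they passed through their high groups, so the count supports nothing about the members. The adjusted p was 7.22e-11 for Igf1r, 1.38e-09 for Igfbp4, 1.13e-07 for Igfbp7, 2.85e-07 for Igfbp5, 5.78e-07 for Igfbp3 and 0.00218 for Igf2. BMP2 and BMP4 differed in 5 of 6 members, against 66.8% of all genes (33.4% higher and 33.4% lower with BMP2). Igfbp4 was 2.84 ± 0.23 higher with BMP2, Igfbp3 2.60 ± 0.33 higher and Igfbp7 4.11 ± 0.46 higher, while Igf2 was lower (-2.02 ± 0.55, or an adjusted p of 0.0668 with a pseudocount of 0.1). Igfbp5 was 1.41 ± 0.63 higher with BMP2 and missed the threshold (adjusted p 0.0576), which it passed in 7 of 15 alternatives, among them edgeR (1.75, adjusted p 0.0103), DESeq2 (1.70, adjusted p 0.0115) and leaving out BMP2 replicate IV (1.62) or VI (1.80).

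BMP5 and BMP7, which are close relatives among the BMPs, differed in 0 of 6 members by limma, by edgeR and by DESeq2. No member reached an unadjusted p of 0.05, and 0.0136% of all genes were called, 0.00678% in each direction. The difference was 0.05 for Igf1r (95% interval -0.38 to 0.49), 0.02 for Igfbp4 (-0.50 to 0.54), 0.35 for Igfbp3 (-0.38 to 1.08) and 0.13 for Igfbp7 (-0.89 to 1.15). It was -0.64 for Igfbp5 (-2.06 to 0.78) and -1.18 for Igf2 (-2.42 to 0.05). The widest of these intervals leave room for differences larger than some of the called changes.

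BMP2 differed from BMP7 in 3 of 6 members, against 62.8% of all genes (31.4% in each direction): Igfbp3 was 2.20 ± 0.33 higher with BMP2, Igfbp5 3.84 ± 0.63 and Igfbp7 1.96 ± 0.46. Igf1r was 0.42 ± 0.20 higher (adjusted p 0.0666) and Igfbp4 lower (-0.53 ± 0.23, adjusted p 0.0556). Igfbp4 passed with the same total (-0.92), quantile normalization (-0.86) or without BMP2 replicate III (-0.80). Igf1r passed with DESeq2 (0.45) or without BMP2 replicate VI (0.61). BMP4 differed from BMP7 in 5 of 6 members, against 59.8% of all genes (28.4% higher and 31.4% lower with BMP4). Igf1r (-3.18 ± 0.21), Igfbp4 (-3.36 ± 0.25) and Igfbp7 (-2.15 ± 0.49) were lower with BMP4, and Igfbp5 (2.44 ± 0.68) and Igf2 (1.75 ± 0.59) were higher. The call for Igf2 was lost without BMP7 replicate VI (1.48, adjusted p 0.0664) and with a pseudocount of 0.1 (adjusted p 0.148).

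Tgfb raised Igf1r and Igfbp4, the only members above the filter of a mean of 1 TPM in that table. Igf1r had 4.04, 4.76 and 4.71 TPM in control replicates I, II and III and 10.5, 8.40 and 8.60 with Tgfb. Igfbp4 had 53.2, 63.7 and 60.2 TPM in controls and 170, 158 and 162 with Tgfb. Treated and control samples did not overlap for either gene. The rise was 0.88 ± 0.11 for Igf1r (log2(TPM + 1), limma, adjusted p 0.000832) and 1.45 ± 0.08 for Igfbp4 (adjusted p 3.39e-05). Both members that could be tested were called, in a comparison that called 56.7% of all genes, 27.4% higher and 29.3% lower.

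Igfbp5 and Igfbp7 were also higher with Tgfb, at levels near 1 TPM. Igfbp5 was listed at 0.0201, 0.0112 and 0 TPM in controls and 1.16, 1.51 and 1.69 with Tgfb. Igfbp7 was listed at 0.0888, 0.104 and 0 TPM in controls and 1.60, 0.770 and 0.983 with Tgfb. The groups did not overlap, and with no filter on low values limma gave rises of 1.27 ± 0.10 (adjusted p 0.000423) and 0.98 ± 0.15 (adjusted p 0.00568). Igfbp2 had 0.528, 0.342 and 0.503 TPM in controls and 1.16, 0.779 and 0.744 with Tgfb, a difference of 0.37 that did not pass (adjusted p 0.0663). Igfbp3 (0.284, 0.271 and 0.334 against 0.441, 0.236 and 0.392 TPM) and Igf2 (0.257, 0.434 and 0.200 against 0, 0.331 and 0.101 TPM) overlapped between the groups. Igfbp6 was listed at 0 in 5 of the 6 samples. The 10 mesenchymal markers summed to 5.16 to 8.31 TPM in controls and 7.41 to 9.62 with Tgfb, with Col1a2, Col3a1, Dcn and Lum at 0 in every sample, while Col1a1 was at most 0.00851 in controls and 0.434 to 0.733 with Tgfb. The sum of crypt stem markers was 2504 to 2956 TPM in controls, of which Olfm4 alone was 2152 to 2589. With Tgfb the sum was 165 to 172 TPM, and the part of this shift in these results was not tested.

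TPM allow levels to be ordered between genes. In control organoids Igfbp4 led with 59.1 ± 5.35 TPM (SD, n = 3), followed by Igf1r with 4.50 ± 0.40, and all other members were under 1 TPM. The range of Igf2 (0.200 to 0.434 TPM) overlapped with those of Igfbp2 (0.342 to 0.528) and Igfbp3 (0.271 to 0.334), while every Igfbp2 value lay above every Igfbp3 value, and Igfbp7 and Igfbp5 overlapped below them. Igfbp4 made up 98.3 to 98.9% of the summed TPM of the 6 binding proteins in controls and 97.5 to 97.9% with Tgfb. That sum was 59.9 ± 5.26 TPM in controls and 167 ± 6.80 with Tgfb.

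**Figure D3:**
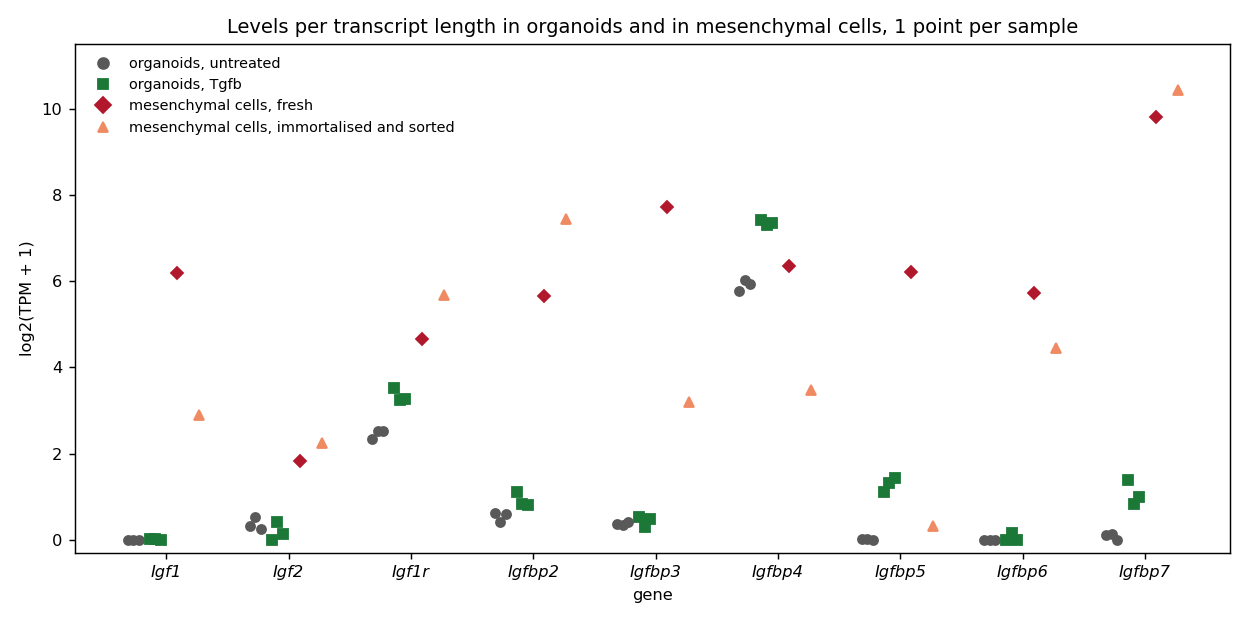
Levels of the 9 members as log2(TPM + 1), 1 point per sample, in untreated and Tgfb-treated organoids and in fresh and immortalised mesenchymal cells. Igfbp4 stands apart from the other members in organoids, at 53.2 to 170 TPM, and Igfbp7 is the highest member in both mesenchymal samples, at 893 and 1389 TPM.

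In mesenchymal cells the order was different, with Igfbp7 first. Fresh cells held 893 TPM of Igfbp7, 208 of Igfbp3, 81.0 of Igfbp4, 73.7 of Igfbp5, 72.3 of Igf1, 51.7 of Igfbp6, 49.6 of Igfbp2, 24.2 of Igf1r and 2.55 of Igf2. There was 1 sample each of fresh and immortalised cells, so these values have no replicate check and no test, and the organoid and mesenchymal tables were scaled separately. Igf1 and Igfbp6 were thus well above 1 TPM here and at or near 0 in all organoids. Igfbp7 made up 65.8% of the summed binding-protein TPM and Igfbp3 15.4%.

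Immortalised and sorted cells had lower values for 5 of the 9 members and higher values for 2, by at least 1 on the log2(TPM + 1) scale. That share compares with 17% of all genes with a mean of at least 1 TPM, 6.26% higher and 10.7% lower. Igfbp5 went from 73.7 to 0.251 TPM (-5.90), Igfbp3 from 208 to 8.14 (-4.52), Igf1 from 72.3 to 6.41 (-3.31), Igfbp4 from 81.0 to 10.0 (-2.89) and Igfbp6 from 51.7 to 20.8 (-1.27). Igfbp2 went from 49.6 to 172 TPM (1.78) and Igf1r from 24.2 to 49.9 (1.02), which lies close to the limit used. Igfbp7 (893 and 1389 TPM, 0.64) and Igf2 (2.55 and 3.74 TPM, 0.42) were within the limit, and Igfbp7 was then 86.8% of the summed binding proteins. The median difference of the 9 was -1.27, with -0.02 over all genes.

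Both mesenchymal samples carried mesenchymal markers, which summed to 17660 TPM in fresh and 6023 TPM in immortalised cells, and 8 epithelial markers summed to 34.2 and 6.76 TPM. Smooth muscle markers summed to 3225 and 3397 TPM, immune markers to 119 and 10.5, and endothelial markers to 20.2 and 1.24. Pdgfra itself was 37.5 and 113 TPM. Immortalisation, selection, sorting and any time in culture separate the pair, so their effects cannot be told apart, and the part of immune or endothelial cells in the fresh sample was not tested.

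The wider pathway was read from 44 other genes in 6 lists, of which 34 passed the filter of the BMP table. Of the 34, BMP2 raised 13 and lowered 8 (median log2 change 0.17), and BMP4 raised 13 and lowered 6 (0.13). BMP5 raised 3 and lowered 3 (0.0011), BMP7 raised 6 and lowered 1 (0.04), and BMP3 changed 0 (0.0076). Among the ligands 27 of the 34 differed, against 84.1% of all genes. Tgfb raised 7 of 29 tested and lowered 5, against 56.7% of all genes called. Taking both directions together, every comparison with calls called a smaller share of the pathway genes than of all genes. For all genes that share was 75.1% for BMP2 and 65.1% for BMP4, while BMP7 called 32.4% and BMP5 26.3%. Against untreated organoids, only the upward shares for BMP2 and BMP4 were above those of all genes (36.8% and 33.7%). The upward share of BMP2 against BMP7 was also above, with 14 of the 34 higher against 31.4% of all genes.

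Among receptors, Lrp1, an endocytic receptor that also takes up Igfbp3, rose by 2.98 ± 0.32 with BMP4 and 0.92 ± 0.08 with Tgfb, and also rose with BMP2 (limma, adjusted p 0.000163). Here and below, changes with Tgfb are on log2(TPM + 1) and those with BMPs on log2(normalized count + 1). Their sizes are therefore not on 1 scale. The mean of Lrp1 was 9673 ± 3366 normalized counts with BMP4 (SD, n = 3) and 3455 ± 1196 with BMP2 (n = 4), against 1222 ± 413 in the 4 controls. Tmem219, described as a receptor for Igfbp3, fell with BMP2 (-0.68 ± 0.16). Stc2, an inhibitor of the protease PAPP-A that cuts Igfbp4, fell by 2.87 ± 0.75 with BMP2 and 1.01 ± 0.17 with Tgfb. The mean of Stc2 was 77.0 ± 72.9 normalized counts with BMP2 (SD, n = 4) against 477 ± 296 in the 4 controls.

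Igf2bp1, an RNA-binding protein named for its binding of Igf2 mRNA, had 0 to 3.55 normalized counts in controls and 46.5 to 114 with BMP2. It rose by 5.08 ± 0.53 with BMP2 and 2.41 ± 0.58 with BMP4, and by 1.70 ± 0.58 with BMP5 and 2.32 ± 0.58 with BMP7. Igf2bp1 passed the filter only through its BMP2 samples. Igf2bp3 fell with BMP2 (-1.07 ± 0.26) and rose with BMP4 (0.81 ± 0.28), and Igf2bp2 fell with BMP5 (-0.41 ± 0.15) and Tgfb (-0.65 ± 0.08).

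Among the substrates behind the receptor, Irs1 fell with BMP4 (-0.96 ± 0.36) while Irs2 rose (1.09 ± 0.16), and Irs2 fell with Tgfb (-0.55 ± 0.12). The adaptor Gab1 rose with BMP2 (0.91 ± 0.09), BMP5 (0.46 ± 0.10), BMP7 (0.29 ± 0.10) and Tgfb (0.72 ± 0.15), and fell with BMP4 (-0.42 ± 0.10). The adaptor Shc1 rose with BMP2 (0.68 ± 0.11), BMP4 (0.59 ± 0.12), BMP7 (0.40 ± 0.12) and Tgfb (0.35 ± 0.10). Pik3cb, a catalytic subunit of PI3K, rose with BMP2 (1.79 ± 0.08), BMP5 (0.54 ± 0.09), BMP7 (0.74 ± 0.09) and Tgfb (1.02 ± 0.07). Pik3r1, a regulatory subunit, fell in these 4 comparisons (-1.78 ± 0.12, -0.42 ± 0.12, -0.49 ± 0.12 and -1.19 ± 0.06) and with BMP4 (-0.59 ± 0.12), where Pik3r2, another regulatory subunit, rose (0.71 ± 0.15). Pdk1 fell with BMP2 (-2.19 ± 0.43) and Tgfb (-1.11 ± 0.13), and in mouse nomenclature it encodes a pyruvate dehydrogenase kinase, while Pdpk1 encodes the kinase that acts on AKT. Between BMP2 and BMP7, the adaptor Grb14 (0.73 ± 0.26) and the transcription factor Foxo3 (1.46 ± 0.09) were the genes of their lists that were higher with BMP2 by most.

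**Figure D4:**
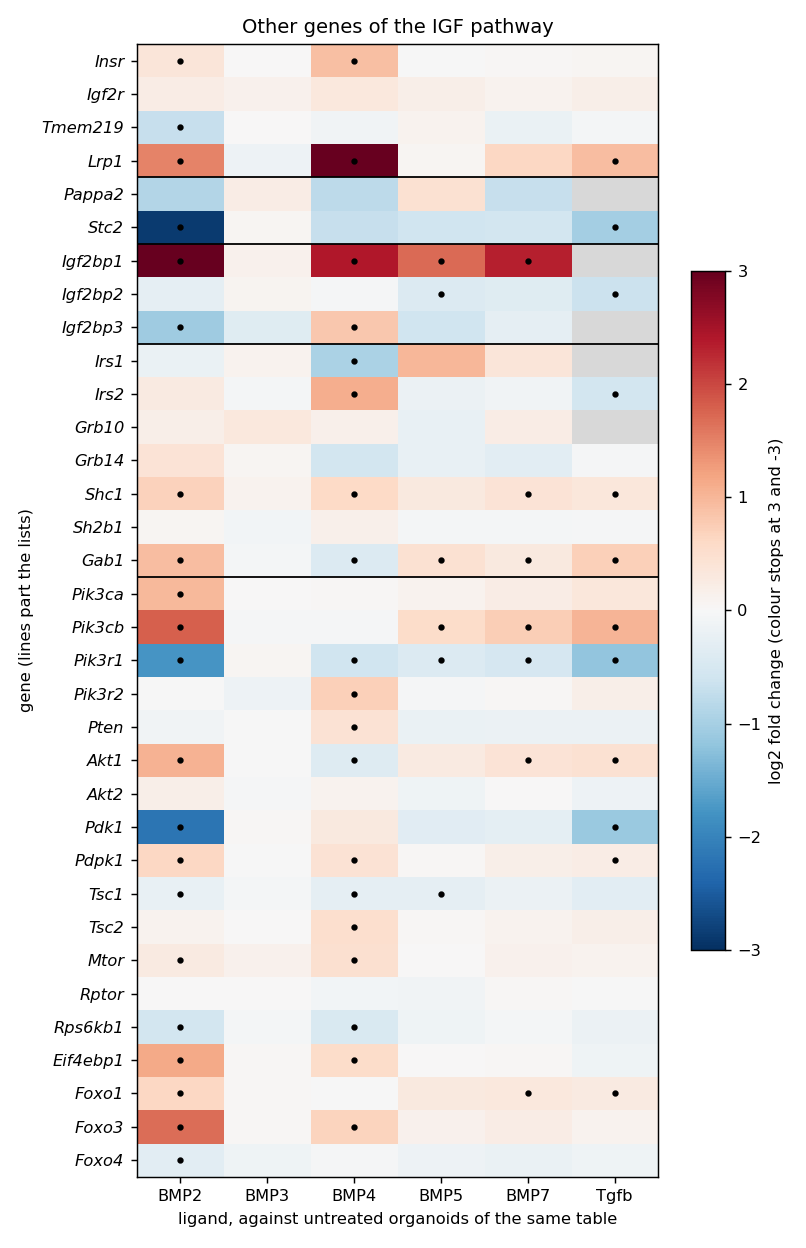
Log2 fold changes of the 34 pathway genes tested in the BMP table (rows, parted by list) against untreated organoids for each ligand (columns). A dot marks an adjusted p under 0.05 by limma, and grey marks a gene not tested with Tgfb. The BMP3 column holds no dot, and Igf2bp1 and Lrp1 show the deepest red, at 5.08 with BMP2 and 2.98 with BMP4.

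In mesenchymal cells, 37 of the 44 pathway genes had a mean of at least 1 TPM, 3 were higher and 3 lower after immortalisation, a share near the 17% of all genes given above. Igf2bp1 went from 2.17 to 30.6 TPM and Igf2bp3 from 3.07 to 12.9, while H19 went from 35.8 to 0.618 and Stc2 from 10.6 to 1.55. The protease Pappa went from 32.1 to 10.9 TPM and Irs1 from 4.65 to 10.5.

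The genes most like each member over the 20 samples of the BMP table were ranked by Pearson correlation of log2 values among 14745 other genes, as a description, since samples of a group share their treatment. For Igf1r they included Cdc42ep1 (r = 0.978) and Sinhcaf (0.975). For Igfbp4 they were Arhgef17 (0.971), Rnf145 (0.963) and Sertad4 (0.962), and for Igfbp3 they were Cyld (0.964), Ube2w (0.964) and Map2 (0.963). Igfbp5 was most like Ascc3 (0.959), Cpm (0.958) and Luzp1 (0.954). Igfbp7 was most like Tnfaip3 (0.982), Il18r1 (0.978) and Il18rap (0.975), and Igf2 most like Stag2 (0.847), 2310016G11Rik (0.816) and Atp8b1 (0.815).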

How the data were processed

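Libraries were made with an mRNA kit after DNase treatment, per the labels' protocols, and sequenced as single-end reads in more than 1 run, per the series' design text, with no assignment of samples to runs. Trim Galore, Salmon, DESeq2 and the build GRCm39 are named in the submitters' processing notes, without roles or versions. The BMP table was deposited as a signal, that is, gene counts that the authors divided by 1 size factor per sample and wrote with 3 significant digits. This was read from the values: all of 180721 low values (100%) were whole multiples of 1 read within 0.1 read. Values with more digits are rounded. The TPM values of the Tgfb and mesenchymal tables are as deposited by the authors, and each column sums to 1000000. No per-sample column was left unmapped.

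limma 3.58.1 (R 4.3.3) with an intensity trend was run on log2(value + 1), two-sided, for genes with a mean of at least 10 in the BMP table (14746 of 29413, 1 fit over 6 groups) or at least 1 TPM in the Tgfb table (12959 of 55416). Benjamini-Hochberg adjustment ran over all genes tested, with a threshold of 0.05. Log2 fold changes on this scale understate the change of low genes. The fits were also run on simulated data in which few genes changed, in a single group. Far more genes were called in the real samples, so that run says little about the results here. Alternatives were the pseudocount, the filter, scaling, the replicate block, leaving out each replicate, edgeR 4.0.16 and DESeq2 1.42.0 on recovered reads. edgeR called 11106 genes for BMP2 against 11077 with limma. Counting intervals are exact and cover counting error only, because no molecular identifiers are stated and PCR copies of a molecule then count as separate reads. The members and lists were chosen with earlier results of these data known. The text names the 9 members, the gene of each pathway list that rose or fell most per comparison, the 3 genes most like each tested member (1 of them is not reported here), and the 2 list genes with the largest difference in each direction in mesenchymal cells. Igfbp1, Igfals, H19 and the single cell type markers in organoids and Pappa and Irs1 in mesenchymal cells were named after their values were seen.

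Replicate numbers in the titles were checked by correlating deviations from group means. Every pair of control samples with BMP3 (0.281 to 0.553), BMP4 (0.19 to 0.225), BMP5 (0.158 to 0.262) and BMP7 (0.236 to 0.294) exceeded 0.1, and so counted as paired. Controls with BMP2 and with Tgfb are in the closing section. Between ligands, every pair also exceeded 0.1 for BMP2 with BMP5 (0.108 to 0.251) and BMP4 with BMP5 (0.166 to 0.240). The same held for BMP4 with BMP7 (0.206 to 0.293) and BMP5 with BMP7 (0.150 to 0.489). The block changed no member call in BMP4 against BMP7 or BMP5 against BMP7. Blocked values are printed where the block changed a call.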

Additional observations from a re-analysis of the deposited data

Results flagged for a closer look

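In the groups of 4 samples, 3 of 16 member and group pairs had a sample whose gap to the nearest other sample was large for the range. Chance gives about 1 in 20 for normally distributed values. All 3 flagged pairs were counts of a few reads, so that rate cannot be set against them. For Igfbp2, BMP2 replicate IV was at 0 normalized counts, below the other three BMP2 samples at 2.27 to 2.56. For Igfbp6, BMP2 replicate VI had 1.27 normalized counts, which is 1 read, and the other 3 had 0, so any single read would have been flagged. For Igfbp7, control replicate III had 4.15 normalized counts, above the other three controls at 1.65 to 1.78, and leaving it out kept the calls with BMP2, BMP5 and BMP7.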

How the results depend on the processing

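Over 71 single-gene results and 1015 alternative values, 952 kept their direction and side of the threshold, 25 lost a call, 16 gained one and 22 changed sign. All sign changes were in differences that did not pass, and their cause was not tested. With BMP3, Igf1r ran from -0.066 to 0.10 when a replicate was left out, and was -0.080 with the replicate block. Igfbp7 with BMP3 ran from -0.049 to 0.27, with -0.086 under the block, -0.029 with edgeR and -0.018 with DESeq2. Igf2 with BMP7 ran from -0.17 to 0.29, and was -0.042 at the same total. Between BMP5 and BMP7, Igf1r ran from -0.14 to 0.17, Igfbp4 from -0.071 to 0.074 and Igfbp7 from -0.25 to 0.47, with -0.015 under quantile normalization.

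A mean of at least 50 left 3 members tested, because fewer genes entered. It called 3 with BMP2, 3 with BMP4, 2 with BMP7 and 3 for BMP2 against BMP4. For BMP2 against BMP7 it called 1, for BMP4 against BMP7 2 and among ligands 3. Genes of all kinds called there were 9538, 8483, 4330, 8649, 8227, 7824 and 10656 in the same order. Igfbp3 (table mean 51.6, control mean 13.5) passed that filter only through its BMP2 samples. At the same total, BMP2 called 3 members and 11421 genes in all. With Tgfb, no filter called 4 members and 7855 of 26322 genes, and a mean of at least 10 called 1 member and 5065 genes. Genes of all kinds called between BMP5 and BMP7 were 2 in the report's fit, 0 with a pseudocount of 0.1 or a mean of at least 50, 1 at the same total or by quantiles, 4 with a pseudocount of 5, no filter or edgeR, 6 with the replicate block, 24 with DESeq2 and 0 to 9 without single replicates. Leaving out single replicates gave 0 to 1 genes with BMP3 (DESeq2 1) and 2517 to 4301 with BMP5.

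Scaling to the same total moved the median of all genes by over 0.1 for BMP2 (to -0.49), BMP4 (-0.35), BMP2 against BMP7 (-0.35) and BMP4 against BMP7 (-0.33). Genes called higher and lower then went from 5420 and 5657 to 3601 and 7820 with BMP2, from 4964 and 4633 to 3080 and 6896 with BMP4, from 2833 and 1940 to 2575 and 2731 with BMP7, from 4637 and 4625 to 2514 and 6971 for BMP2 against BMP7, and from 4190 and 4628 to 2659 and 6652 for BMP4 against BMP7. Quantile normalization took BMP5 from 2429 and 1455 to 2430 and 2318, and BMP7 to 2749 and 2773. No called member changed sign under either scaling. Control and BMP2 samples of the same number correlated at 0.0182 to 0.421 (3 of 4 best with their own number), and control and Tgfb samples at 0.00405 to 0.0696 (1 of 3), so these were not treated as paired. The block moved their calls from 11077 to 11858 and from 7348 to 7613 genes. The replicate block left 56 of 62 single-gene results as they were. It added calls for Igf1r with BMP5 and BMP7, given above, and, between groups whose numbers did not pair them, for Igfbp5 in BMP2 against BMP4 (1.47, adjusted p 0.0129 by limma) and Igf1r in BMP2 against BMP7 (0.40, adjusted p 0.000307). Depth limits Igf1 and Igfbp6, which lay at or below 3 reads.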
